A study of Mus musculus with 18 samples.

Results

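The genes described here encode titin and proteins that join it to the Z-disc, the M-band and the filaments beside them. They are Ttn, Mybpc3, Myom1, Actn2, Ldb3, Csrp3, Myoz2, Tcap, Ankrd1 and Des. These 10 genes were taken by symbol from the table that pairs the array's probe sets with genes. They have 19 probe sets of 45101 on the array, and are 10 of the 18193 genes that a probe set names alone.

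A sarcomere is the repeating contractile unit of striated muscle. Its thin filaments are anchored at the Z-disc, which alpha-actinin crosslinks, and its thick filaments are held together at the M-band, where myomesin lies. Titin spans from the Z-disc to the M-band and acts as a molecular spring and a scaffold, and desmin filaments tie neighbouring Z-discs to each other and to the cell membrane. In the heart these proteins carry force, and mutations of many of them in people cause cardiomyopathy.

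RNA came from mouse embryonic stem cells of line D3 that differentiated as embryoid bodies, cell aggregates formed in hanging drops, in medium with ascorbic acid. GFP-positive and GFP-negative cells were sorted by flow cytometry on days 5, 6, 7 and 8 from cells that carried GFP under an Nkx2-5 enhancer and the hsp68 minimal promoter, a reporter for cardiac progenitors, together with a hygromycin resistance vector. Each day and fraction has 1 array from batch 1 and 1 from batch 2. Cardiomyocytes, also 2 arrays, came from another stable clone of the line, with the neomycin resistance gene under the alpha myosin heavy chain (Myh6) promoter, and were selected with the antibiotic G418. The labels give these cardiomyocytes no day and no batch, so transgene, selection, age and batch cannot be told apart between them and sorted cells. Nothing in the labels ties the arrays of 1 group to separate cultures, so each p-value measures only how far these samples spread, and that spread may be technical. As these are bulk samples, fewer cells of a type and less RNA per cell cannot be told apart.

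Values are MAS5 signals, brightness on a linear scale, and a gene is given by its probe set with the highest mean. Precision is limited by there being 2 arrays a group. The median of all values, 22.5, serves as a mark of dimness because no detection calls were used. Arrays of 1 group correlated at r = 0.954 to 0.983 across probe sets, and cardiomyocyte with sorted arrays at 0.85 to 0.902. The summed signal of 6 cardiomyocyte markers was 37884.3 to 39172.1 in selected cardiomyocytes, 18855.3 to 19012.1 in day 8 GFP-positive cells and 2623.2 to 5443.1 in day 8 GFP-negative cells. In GFP-positive cells of day 5 it was 9703.1 at most and 2146 at least, so these 2 arrays stood apart. Of 8 skeletal muscle markers, 6 were below 22.5 on both arrays of selected cardiomyocytes and of day 8 cells of both fractions, among them Myod1 and Myog, and no marker signal was exactly 0.

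Titin (Ttn, chr2:76703980-76982557 in GRCm38.p6, as are all positions given) was the gene of the 10 on which day 8 GFP-positive cells had the signal closest to that of selected cardiomyocytes. Its signal was 1439.2 and 1892.5 in selected cardiomyocytes. In batch 1 the GFP-positive cells gave 434.2, 554, 1865.7 and 1763.1 on days 5, 6, 7 and 8, and the GFP-negative cells of the same days gave 90.2, 140.2, 312.2 and 218.9. Batch 2 gave 13, 22, 867.8 and 1352.9 in GFP-positive cells and 9.2, 18, 106.1 and 74.9 in GFP-negative cells. Both early batch 2 arrays of each fraction thus lay under the median of all values, while every batch 1 array lay above it. GFP-positive exceeded GFP-negative in 8 of 8 pairs of day and batch. Of the 5 other titin probe sets, 4 followed this one over the 16 sorted arrays (r = 0.949 to 0.987), and the last was under 22.5 on all 18 arrays.

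Mybpc3 (chr2:91118114-91136516) encodes cardiac myosin-binding protein C, which sits on the thick filament and tunes its cross-bridges. Its signal was 3776.5 and 3543.8 in selected cardiomyocytes. Batch 1 gave 264.1, 371.7, 610.6 and 582.8 over the 4 days in GFP-positive cells, and 78.8, 110.4, 196.4 and 160.5 in GFP-negative cells. In batch 2 the values were 40.1, 37.2, 393.5 and 693.3 in GFP-positive cells, and 19.6, 28.4, 112.5 and 117.4 in GFP-negative cells. The selected cardiomyocytes lay above every sorted array, and GFP-positive exceeded GFP-negative in 8 of 8 pairs. Myom1 (chr17:71003332-71126856) encodes myomesin, the main crosslinker of thick filaments at the M-band. It gave 1269.7 and 1127.3 in selected cardiomyocytes. GFP-positive cells had 73.3, 133.7, 289.8 and 323.1 in batch 1 and 11.4, 16.3, 156.7 and 296.5 in batch 2, day by day. GFP-negative cells had 34, 44.4, 133.3 and 177.7 in batch 1 and 2.4, 20.9, 80.3 and 166.3 in batch 2. Its day 8 values in the fractions were nearer to each other than those of Mybpc3, and GFP-positive was higher in 7 of 8 pairs.

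Actn2 (chr13:12269426-12340732), the alpha-actinin of heart and skeletal muscle that crosslinks thin filaments at the Z-disc, had 3626.2 and 3838.5 in selected cardiomyocytes. GFP-positive cells gave 39.5, 84.8, 221.6 and 184.7 in batch 1 and 14.2, 14.3, 116.3 and 249.8 in batch 2. GFP-negative cells gave 19.5, 29.5, 78.1 and 58.2 in batch 1 and 14.4, 1.2, 24.6 and 29.8 in batch 2. The early batch 2 arrays of both fractions were dim. Ldb3 (chr14:34526699-34590314) encodes ZASP, also called cypher, a PDZ and LIM protein that binds alpha-actinin. It had 2145.1 and 1873.1 in selected cardiomyocytes. Its 8 GFP-positive signals ran from 0.6 in batch 2 on day 5 through a median of 142.2 to 267.4 in batch 2 on day 8, and its GFP-negative signals from 8.7 through 29.6 to 65.6. So Ldb3 had both its lowest and its highest sorted signal in GFP-positive cells of batch 2. Csrp3 (chr7:48830398-48848051) encodes muscle LIM protein, a Z-disc protein linked to stretch sensing. It had 5427.4 and 4885.8 in selected cardiomyocytes, 508.4 and 372 in day 8 GFP-positive cells and 126.4 and 53.6 in day 8 GFP-negative cells. Day 5 gave 160.4 and 16.3 in the GFP-positive fraction and 77.2 and 5.6 in the GFP-negative one, and GFP-positive was higher in 8 of 8 pairs.

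Myoz2 and Tcap did not share this course. Myoz2 (chr3:123006206-123035003) encodes calsarcin-1, which binds alpha-actinin and calcineurin at the Z-disc. It had 1504.1 and 1606 in selected cardiomyocytes, against 1.3 to 20 over the 8 GFP-positive arrays and 3.3 to 17 over the 8 GFP-negative arrays. All 16 sorted arrays were thus under 22.5, and the gene entered the tests through its 2 cardiomyocyte arrays alone. Tcap (chr11:98383811-98384953) encodes telethonin, which joins the ends of titin molecules at the Z-disc. It had 167.7 and 89.9 in selected cardiomyocytes, 25.3 to 40.8 over the GFP-positive arrays and 19.4 to 43.3 over the GFP-negative arrays. The sorted fractions overlapped on Tcap almost entirely.

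Ankrd1 (chr19:36111965-36119844) encodes the cardiac ankyrin repeat protein, which binds titin in the I-band, enters the nucleus and is known as a gene induced by stress on muscle. It had 6404.8 and 6087.2 in selected cardiomyocytes. GFP-positive cells had 41.6, 42.4, 82.2 and 70 in batch 1 and 29.4, 21.2, 77 and 85.5 in batch 2. GFP-negative cells had 27.4, 24.6, 57.5 and 32.3 in batch 1 and 26.2, 16.7, 22.8 and 30.7 in batch 2. Sorted cells of both fractions thus ran from 16.7 to 85.5, far under the selected cardiomyocytes, with GFP-positive higher in 8 of 8 pairs. Des (chr1:75360292-75368579) encodes desmin, the muscle intermediate filament. It had 1347.3 and 1237.2 in selected cardiomyocytes. GFP-positive cells had 90.8, 88.9, 132.5 and 112.3 in batch 1 and 48.5, 60.4, 99 and 157.1 in batch 2. GFP-negative cells had 62.9, 87.7, 150.3 and 227 in batch 1 and 29.5, 60.1, 58.3 and 100.4 in batch 2. For Des the second highest group mean was that of day 8 GFP-negative cells. A second desmin probe set gave 26.1 and 26.6 in selected cardiomyocytes and followed the first loosely over the sorted arrays (r = 0.384).

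**Figure D1:**
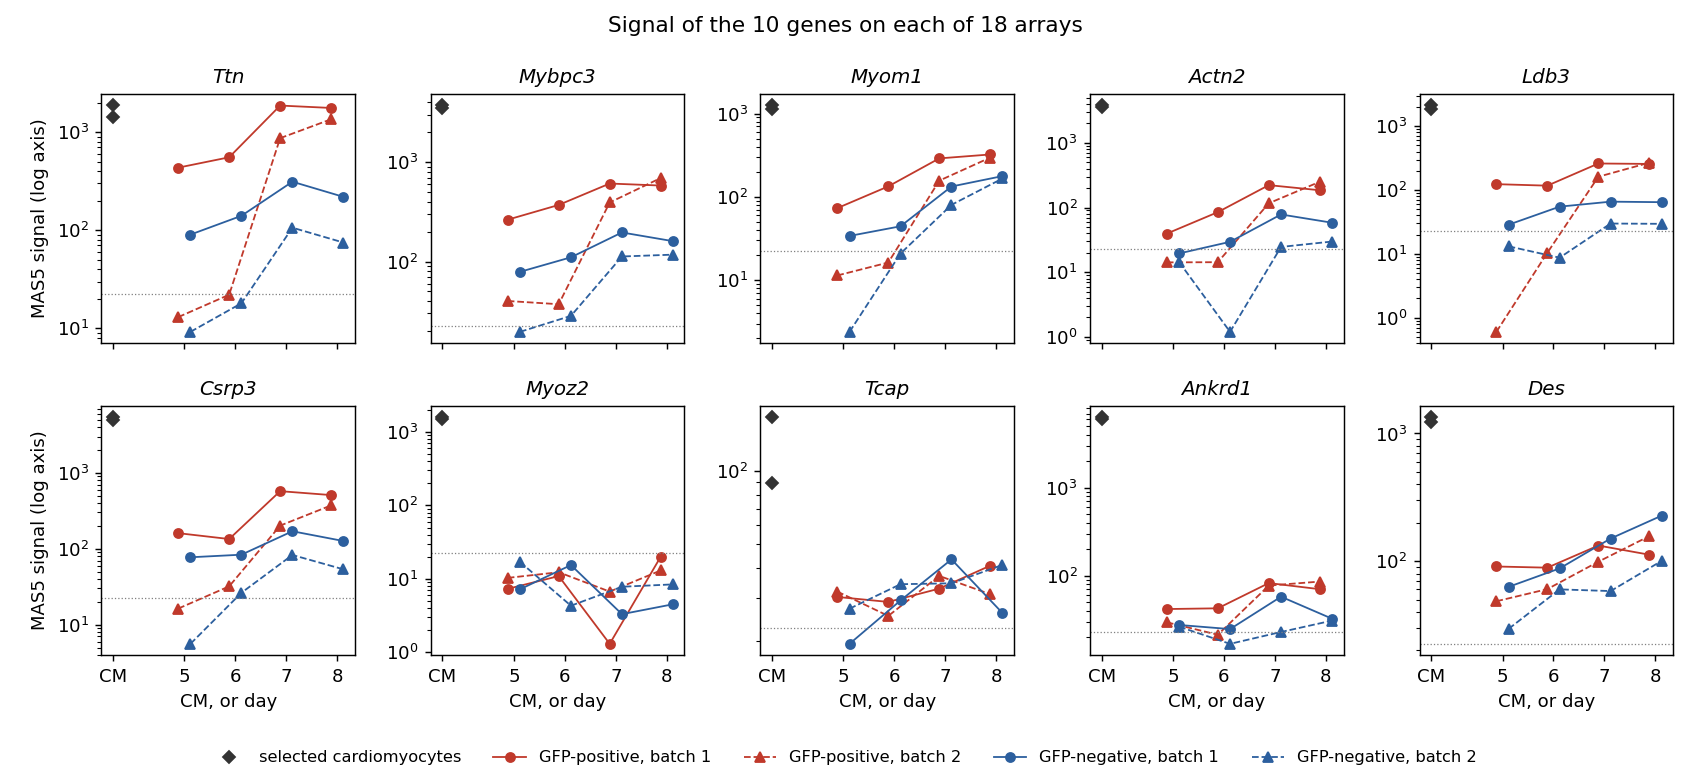
Each panel plots 1 gene's MAS5 signal on a log axis, with selected cardiomyocytes (CM, diamonds) at the left and days 5 to 8 of GFP-positive (red) and GFP-negative (blue) cells beside them, batch 1 as circles and batch 2 as triangles. The dotted line is the median of all values, 22.5, and CM lies above every sorted array in each panel but that of Ttn.

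The order of group means began with selected cardiomyocytes for all 10 genes. It went on with day 8 GFP-positive cells for 7 of them, with day 7 GFP-positive cells for Ankrd1, with day 7 GFP-negative cells for Tcap and with day 8 GFP-negative cells for Des. With 2 arrays a group, 4 to 7 of the 8 neighbouring pairs of groups in each gene's order overlapped, so many steps in it are not resolved. Both cardiomyocyte arrays were above every sorted array for 9 of 10 genes, the exception being Ttn. The share of all genes with such a separation was not counted, so these 9 are not set against one.

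Over the 16 sorted arrays the 8 genes other than Myoz2 and Tcap ran together, with pairwise r on the log2 scale of 0.61 to 0.99 and a median of 0.89 over 28 pairs. The 17 pairs that involve Myoz2 or Tcap had r of -0.38 to 0.46. These correlations are descriptions, since the arrays share days, fractions and batches. The closest profile among all tested genes was Myh6, an alpha myosin heavy chain gene, for Ttn (r = 0.99), Ttn for Mybpc3 (0.99), Myl3, a ventricular light chain gene, for Ldb3 (0.99) and Sh3bgr for Csrp3 (0.98). It was Irf2bp2 for Myom1 (0.97), Man1a for Des (0.97), Emcn for Actn2 (0.95), Actn2 for Ankrd1 (0.94), Dipk1a for Tcap (0.83) and Sec22c for Myoz2 (0.79). Against the mean profile of the 10 genes, the closest genes outside them were Rassf5 (r = 0.98), Apoa1, Adgre5, Myh6 and Emcn (0.97 each), Asb2, Sorbs2, Tecrl and Atp1b1 (0.96 each) and Tmem255a (0.95). Endothelial (Emcn) and endoderm (Apoa1) genes thus stood as near as sarcomere genes, and the summed endoderm markers were 11822.2 to 13521.7 in day 8 GFP-positive cells while GFP-negative cells of that day had 1492.1 to 3564.1.

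Because these genes ran together, the 250 bases before annotated transcript starts were searched on both strands for 4 motifs of muscle promoters. RefSeq windows of GRCm38.p6 were given for 9 of the 10 genes, 11 windows in all, and none for Tcap. The windows of Ldb3 and Myom1, and one of those of Csrp3, lie inside the annotated gene, before inner transcript starts. A MEF2 box, the site of the MEF2 factors of muscle, was found in the windows of Ttn, Mybpc3 and Myoz2, and in 2.92% of 32851 windows of all genes. A CArG box, the site of serum response factor, was found for Ldb3 and Myom1 and in 1.47% of all windows. A motif of GATA factors, spelled AGATAA, was found for Myom1 and Ankrd1 and in 9.99%, and the M-CAT motif of TEAD factors, spelled CATTCC, for Ankrd1 at 2 places and in 12.6%. Windows of Actn2, Csrp3 and Des held none of the 4. Shown are the windows of the 3 genes with a MEF2 box, among them one that ran with the group (Ttn) and one that did not (Myoz2), and that of Ankrd1, which has 3 of the other motif matches and was far brighter in selected than in sorted cells. Each is written 5′ to 3′ on the gene's strand without bases inside the annotated gene, and capitals mark the motifs, which do not overlap. AGATAA and CATTCC read TTATCT and GGAATG in the Ankrd1 window, being on the other strand.
Ttn (chr2:76982558-76982797, minus strand, 240 bases): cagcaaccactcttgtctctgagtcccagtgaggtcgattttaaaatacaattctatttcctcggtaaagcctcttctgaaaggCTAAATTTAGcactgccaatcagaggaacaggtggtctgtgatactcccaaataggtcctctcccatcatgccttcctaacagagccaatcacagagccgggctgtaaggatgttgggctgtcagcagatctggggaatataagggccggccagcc
Mybpc3 (chr2:91117894-91118113, plus strand, 220 bases): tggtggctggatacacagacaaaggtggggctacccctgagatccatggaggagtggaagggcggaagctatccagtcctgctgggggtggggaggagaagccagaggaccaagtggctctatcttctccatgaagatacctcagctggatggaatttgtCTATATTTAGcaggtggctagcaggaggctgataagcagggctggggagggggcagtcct
Myoz2 (chr3:123035004-123035237, minus strand, 234 bases): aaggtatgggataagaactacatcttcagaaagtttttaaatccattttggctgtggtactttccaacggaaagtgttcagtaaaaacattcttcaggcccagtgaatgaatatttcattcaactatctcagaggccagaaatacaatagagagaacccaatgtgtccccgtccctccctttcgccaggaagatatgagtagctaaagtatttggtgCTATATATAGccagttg
Ankrd1 (chr19:36119845-36120094, minus strand, 250 bases): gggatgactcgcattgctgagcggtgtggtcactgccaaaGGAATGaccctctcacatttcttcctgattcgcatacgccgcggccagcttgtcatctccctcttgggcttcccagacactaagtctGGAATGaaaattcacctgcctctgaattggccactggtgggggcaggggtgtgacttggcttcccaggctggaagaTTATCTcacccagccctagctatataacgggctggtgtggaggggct
Counted from the start of the transcript, the MEF2 box begins 166 bases before it in Ttn, 90 in Mybpc3 and 33 in Myoz2. These matches describe letters in a window and are not binding sites shown by these data.

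The first comparison asked how GFP-positive cells differ from GFP-negative cells over the 4 days. All 10 genes had a positive mean difference, with a median of 1.07 on the scale of log2(signal + 6.8) against -0.01 over all 13379 genes tested. Only Ankrd1 rose by the limma test at an adjusted p under 0.05, by 0.72 ± 0.18 (SE, 8 arrays a fraction; adjusted p = 0.0461). Of all genes tested, 2.68% passed in either direction and 2.14% rose. The differences were larger but more variable for Ttn, at 2.15 ± 0.75 (adjusted p = 0.145), Mybpc3, at 1.52 ± 0.48 (0.108), and Actn2, at 1.41 ± 0.38 (0.0697). Ldb3 (1.31 ± 0.56), Csrp3 (1.29 ± 0.51) and Myom1 (0.85 ± 0.42) did not pass either, and Des (0.16 ± 0.24), Myoz2 (0.15 ± 0.20) and Tcap (0.03 ± 0.16) lay within their standard errors of 0. On this scale a difference understates the change of a dim gene.

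The Ankrd1 call did not hold in 13 of 16 fits that left out 1 array, with adjusted p from 0.0173 to 0.12. The number of members called was lower in 12 of these fits, and higher without the batch 2 GFP-positive array of day 5 or of day 6. More of all genes passed without either of those arrays too. With the batch number as a block, which compares the fractions within a batch, 724 of 13379 genes passed, against 358 without it. Of the 10 genes 5 rose in that fit. These were Actn2 (adjusted p = 0.00642), Csrp3 (0.008), Ttn (0.00866), Mybpc3 (0.0139) and Ankrd1 (0.0166). Without the 4 batch 2 arrays of days 5 and 6, a choice made after seeing the data, the difference of Ttn was 2.60. Within batch 1 and batch 2 the mean GFP difference was 2.41 and 1.88 for Ttn, 1.69 and 1.35 for Mybpc3, 1.33 and 1.25 for Csrp3, 1.28 and 1.54 for Actn2, 1.66 and 0.96 for Ldb3, and 1.09 and 0.61 for Myom1. The direction was thus the same in both batches for these 6 genes.

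Day by day, none of the 10 genes passed, on any day, in the limma fit without a block. The share of all genes that passed was 0.0149% on day 5, 0% on days 6 and 7 and 2.58% (2.32% higher) on day 8, with 807, 324, 1135 and 2476 genes at an unadjusted p under 0.05. On day 8 the mean signal of Ttn was 1558 ± 290 in GFP-positive cells against 147 ± 102 in GFP-negative cells (SD, n = 2 arrays each). The difference was 3.51 ± 1.49 on the log2 scale (limma, adjusted p = 0.231). Others on day 8 were Ldb3 at 2.40 ± 1.13, Csrp3 at 2.30 ± 1.01, Actn2 at 2.18 ± 0.76, Mybpc3 at 2.16 ± 0.95, Ankrd1 at 1.14 ± 0.35 and Myom1 at 0.82 ± 0.85. Des was at -0.18 ± 0.48, its day 8 signals being 112.3 and 157.1 in the GFP-positive fraction and 227 and 100.4 in the GFP-negative one. With the batch block 4 genes rose on day 8, namely Csrp3 (limma, adjusted p = 0.0167), Ttn (0.0256), Actn2 (0.026) and Ankrd1 (0.0488). In that fit 705 of 13379 genes passed on day 8, against 345 without the block. The summed fibroblast markers were 1948.7 to 2006.6 in day 8 GFP-positive cells and 7112.4 to 15483.8 in day 8 GFP-negative cells, and their part in the Des values was not tested.

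**Figure D2:**
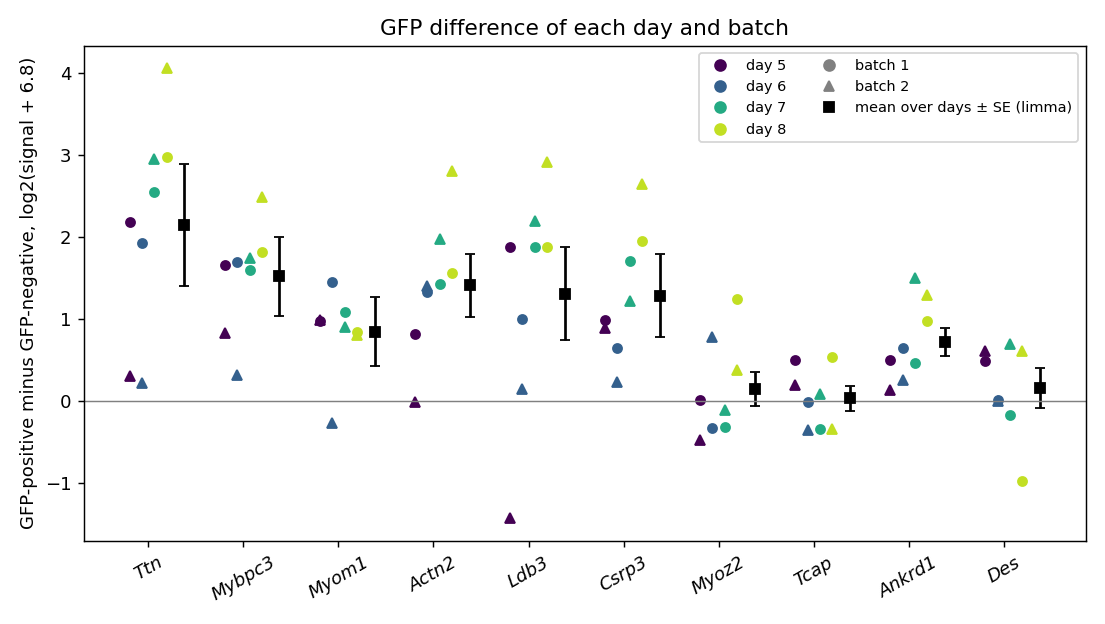
For each gene the small points give the GFP-positive minus GFP-negative difference of 1 day and batch in log2(signal + 6.8), coloured by day, batch 1 as circles and batch 2 as triangles. The black square is the limma mean over days with its standard error, which is 2.15 ± 0.75 for Ttn and 0.72 ± 0.18 for Ankrd1.

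Among partners of these proteins, from lists chosen with earlier results of these data known, few genes passed over all days. Over all genes 2.14% rose, and 1 call in lists of this size is near that share. Of 27 Z-disc partners tested, 1 rose and 0 fell in GFP-positive cells, Synpo2l, which encodes an actin-binding Z-disc protein (1.49 ± 0.31, adjusted p = 0.0259, limma). Of 13 genes of sarcomere assembly and thin filament length, 1 rose and 0 fell, Fhod3, a formin that builds cardiac thin filaments (1.19 ± 0.24, adjusted p = 0.0217). None of 8 M-band and giant protein genes passed, with Trim54 closest (0.67 ± 0.18, adjusted p = 0.0678), and none of 13 contractile protein genes did, with a median of 1.30. On day 8, where 2.32% of all genes rose, 2 of 27 Z-disc partners did, Synpo2l (2.60 ± 0.63) and Fhl2, a LIM protein gene (1.33 ± 0.32). Of 13 assembly genes 1 rose on that day, Fhod3 (2.49 ± 0.48).

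The second comparison set days 7 and 8 against days 5 and 6 within a fraction. In GFP-positive cells 7 of the 10 genes rose and 0 fell, where 19.4% of all genes passed, 11.3% rising and 8.03% falling. Ttn rose most, by 3.69 ± 1.06 on the log2 scale (SE, 4 arrays against 4; limma, adjusted p = 0.0298). Ldb3 rose by 2.66 ± 0.80, Csrp3 by 2.53 ± 0.71, Myom1 by 2.50 ± 0.60, Actn2 by 2.38 ± 0.54, Mybpc3 by 2.23 ± 0.67 and Ankrd1 by 1.11 ± 0.25. Their adjusted p ran from 0.0113 for Ankrd1 to 0.0366 for Mybpc3. Des (0.76 ± 0.34, adjusted p = 0.129), Tcap (0.23 ± 0.22) and Myoz2 (-0.12 ± 0.29) did not pass. With the batch block Des rose too (limma, adjusted p = 0.0306). The median over the 10 was 2.30, against 0.09 over all genes. In the same cells 3 of 6 cardiomyocyte markers (median 2.77), 3 of 5 endoderm markers (median 3.46), 2 of 6 endothelium markers (median 0.85) and 1 of 3 blood markers (median 2.83) rose, and their part in the result was not tested.

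The size of these changes differed between batches. The late minus early difference in GFP-positive cells of batch 1 and batch 2 was 1.87 and 5.51 for Ttn, 1.06 and 4.25 for Ldb3, 0.91 and 3.54 for Mybpc3, 1.56 and 3.44 for Myom1, 1.83 and 3.23 for Csrp3, 1.68 and 3.08 for Actn2 and 0.76 and 1.47 for Ankrd1. All 7 were higher late in both batches. Without the 4 batch 2 arrays of days 5 and 6 only Myom1 passed, by 1.31 (limma, adjusted p = 0.0478). The count was lower without either GFP-positive array of day 7 or day 8, or without the batch 2 one of day 5 or 6. Fewer of all genes passed in each of those fits too, so the loss was not confined to these genes.

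In GFP-negative cells 1 of 10 genes rose and 0 fell between the same days, where 12.5% of all genes passed, 7.25% rising and 5.25% falling. That gene was Myom1 (2.38 ± 0.60, limma, adjusted p = 0.0244). Ttn had 1.72 ± 1.06, Mybpc3 1.44 ± 0.67, Csrp3 1.34 ± 0.71, Actn2 1.32 ± 0.54 and Des 1.00 ± 0.34, and none of these passed. With the batch block 5 genes rose, Myom1 (limma, adjusted p = 0.00209), Des (0.0122), Csrp3 (0.0163), Actn2 (0.022) and Mybpc3 (0.0386). No share over all genes is given for that fit, so these 5 are not set against one. The Myom1 call was lost in 4 of 8 fits that left out 1 array, those without the batch 1 array of day 7 or the batch 2 array of day 5, 6 or 8, with adjusted p up to 0.106 (limma). Without the last of these Des passed instead, and 2 genes passed without the batch 1 array of day 5 or 6 or the batch 2 array of day 7. All 5 fibroblast markers rose in the same cells (Dcn by 3.22 ± 0.62, adjusted p = 0.00937, limma), against 0 of 5 in GFP-positive cells.

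Whether the GFP difference itself changed between early and late days was tested as an interaction. None of the 10 genes passed, by limma, where 0.142% of all genes did and 1728 were at an unadjusted p under 0.05. Ttn had a change of 1.97 ± 1.49, Ldb3 1.82 ± 1.13, Csrp3 1.19 ± 1.01 and Actn2 1.06 ± 0.76, and Myom1 had 0.12 ± 0.85. With a batch term for each stage, added after seeing the data, Ttn passed (limma, adjusted p = 0.0363). That 7 genes rose in GFP-positive cells and 1 in GFP-negative cells was therefore not shown, without a block, to be a difference between the fractions.

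Late against early, 6 of 27 Z-disc partners rose and 0 fell in GFP-positive cells, where 11.3% of all genes rose, among them Synpo2l by 1.94 ± 0.44, Synpo2 by 1.53 ± 0.37, Myoz1 by 1.52 ± 0.37 and Fhl2 by 0.86 ± 0.23. Of 8 M-band and giant protein genes, 1 rose, which is about the share over all genes. It was Mybphl, a relative of myosin-binding protein H (1.04 ± 0.25). Its GFP-positive signals were under 22.5 except for 24.9 in batch 2 on day 8. Of 13 assembly genes 3 rose, Hspb7, a small heat shock protein gene (1.57 ± 0.31), Fhod3 (1.22 ± 0.34) and Tmod1, whose product caps thin filaments (2.06 ± 0.59). Of 13 contractile protein genes 7 rose, with a median over the list of 2.31. None of these fell. In GFP-negative cells 7.25% of all genes rose and 5.25% fell. Of 27 Z-disc partners 1 rose there, Vcl, the gene of vinculin (0.75 ± 0.14). Actn3, the alpha-actinin gene of fast muscle, fell by 1.18 (SE 0.28). Of 8 M-band and giant protein genes 2 rose, the calpain gene Capn3 (2.07 ± 0.34) and Mybphl (0.84 ± 0.25). Mybphl was under 22.5 on every GFP-negative array. Of 13 assembly genes 1 rose, Tmod1 (2.35 ± 0.59). None of the 13 contractile protein genes passed there.

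Batch was then compared within day and fraction, since it split the early arrays. On days 5 and 6, 6 of the 10 genes were higher in batch 1 and 0 lower, where 10.8% of all genes passed and 7.5% were higher. The difference was 3.48 ± 0.31 for Ttn (limma, SE, 4 arrays a batch; adjusted p = 3.36e-05), 2.45 ± 0.39 for Ldb3, 2.27 ± 0.23 for Mybpc3, 2.23 ± 0.23 for Csrp3, 1.94 ± 0.24 for Myom1 and 1.44 ± 0.32 for Actn2. Des (0.69 ± 0.24, adjusted p = 0.0807), Ankrd1 (0.43 ± 0.21), Myoz2 (-0.04 ± 0.29) and Tcap (-0.12 ± 0.23) did not pass. Batch 1 was higher in 4 of 4 pairs for 8 genes and in 1 of 4 for Myoz2 and Tcap. The Actn2 call was lost in 4 of 8 fits that left out 1 array, with adjusted p up to 0.0631.

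On days 7 and 8 none of the 10 passed between batches by limma, as did 0% of all genes, with 2238 genes at an unadjusted p under 0.05. Ttn had 1.11 ± 0.31 (adjusted p = 0.167), Csrp3 1.01 ± 0.23 (0.151) and Des 0.58 ± 0.24 (0.256). Without either GFP-positive array of day 8, which leaves no pair there, Csrp3 and Des were higher in batch 1 (1.20 and 0.93). Both passed in those fits, but so did other genes over the array, of which none passed with every array kept. The change of the batch difference, early minus late, passed for 3 genes and for 3.83% of all (2.63% with a larger difference early). These were Ttn (2.37 ± 0.44, limma, adjusted p = 0.0121), Mybpc3 (1.87 ± 0.32, 0.00776) and Myom1 (1.505 ± 0.34, 0.0319). Ldb3 (1.81 ± 0.55, adjusted p = 0.0896) and Csrp3 (1.22 ± 0.32, 0.0578) did not pass. The Myom1 call was lost in 14 of 16 fits without 1 array.

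Other genes also differed between batches on days 5 and 6, where 7.5% of all genes were higher in batch 1. Of 13 contractile protein genes 11 were higher in batch 1 and 0 lower, with a median of 3.15. Of 27 Z-disc partners 7 were higher and 1 lower, among them Cryab, a chaperone gene, by 3.04 ± 0.46, Nebl, the gene of nebulette, by 2.49 ± 0.29, Nexn by 1.64 ± 0.22 and Synpo2l by 1.32 ± 0.23. Of 13 assembly genes 4 were higher, namely the myosin chaperone gene Unc45b (2.35 ± 0.25), Smyd1, a methyltransferase gene of striated muscle (2.14 ± 0.33), Tmod1 (1.81 ± 0.26) and Fhod3 (0.82 ± 0.20). Of 8 M-band and giant protein genes 1 was higher, the ubiquitin ligase gene Trim63 (1.53 ± 0.38). All 6 cardiomyocyte markers were higher in batch 1 on those days. So were 4 of 5 endoderm markers (median 2.40), 3 of 5 fibroblast markers (median 1.68), 3 of 6 endothelium markers, with 1 lower (median 1.25), and 1 of 3 blood markers (median 3.34). The part of cell content in these differences was not tested.

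**Figure D3:**
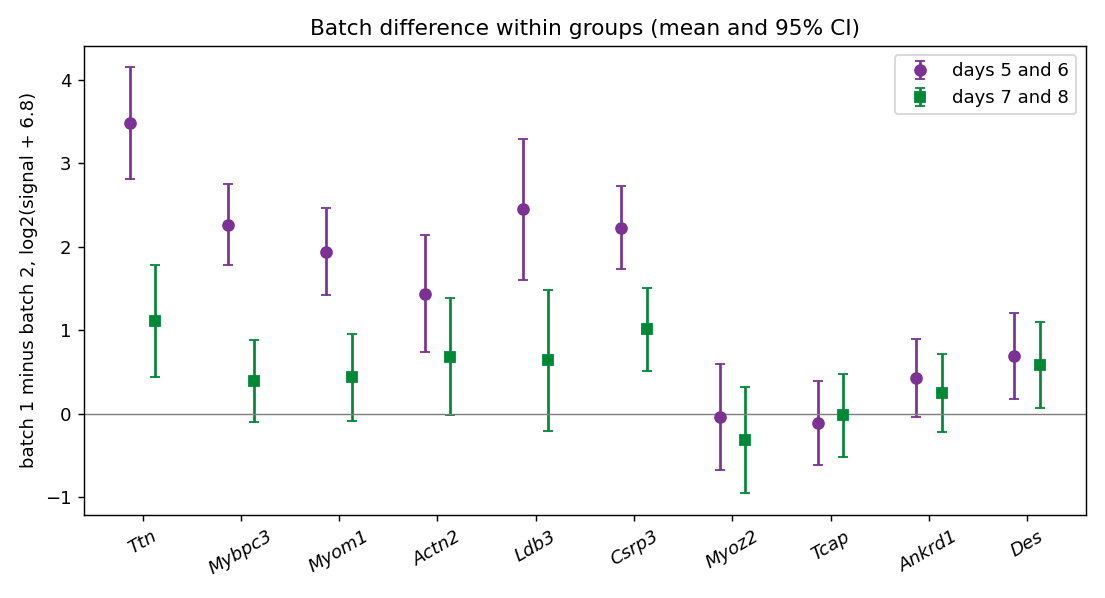
Points give the batch 1 minus batch 2 difference within day and fraction, in log2(signal + 6.8), with its 95% confidence interval, for days 5 and 6 (circles) and days 7 and 8 (squares). For Ttn the stages differ by 2.37 units, while the intervals of Myoz2 and Tcap hold 0 at both stages.

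The last comparison set selected cardiomyocytes against day 8 GFP-positive cells. Of the 10 genes 6 passed the threshold as higher and 0 as lower, where 35.6% of all genes passed and 13.7% rose. One of the 6 is Myoz2, whose call the filter on dim genes fixed, which leaves 5 of the other 9. Ankrd1 rose by 6.21 ± 0.35 on the log2 scale (SE, n = 2 arrays each; limma, adjusted p = 3.20e-07), its means being 6246 ± 225 in selected cardiomyocytes and 77.75 ± 10.96 in day 8 GFP-positive cells (SD). Myoz2 had 1504.1 and 1606 in selected cardiomyocytes and 20 and 13 in day 8 GFP-positive cells. It entered the tests through the cardiomyocyte arrays alone and so had to differ, and its difference of 6.08 is a description that depends on the offset, 6.50 with an offset of 1. Actn2 rose by 4.08 ± 0.76, Csrp3 by 3.55 ± 1.01, Des by 3.22 ± 0.48 and Tcap by 1.61 ± 0.31. The Csrp3 call (limma, adjusted p = 0.0156) was lost without any 1 of the 4 arrays, with adjusted p of 0.0531 to 0.0868.

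Ldb3 (2.91 ± 1.13, adjusted p = 0.0604), Mybpc3 (2.51 ± 0.95, 0.0557) and Myom1 (1.93 ± 0.85, 0.0941) did not pass in the limma fit without a block. The labels give the cardiomyocytes no batch, so a batch term for the sorted arrays left these differences as they were and lowered only the estimate of the spread. In that fit all 3 rose, at adjusted p of 0.00809, 0.00632 and 0.0132 in the same order. The share of all genes that passed with the batch term is not given here, so these 3 genes are not set against one. Their cardiomyocyte arrays lay above every sorted array. The fit shares 1 estimate of the spread over all groups, and without the 4 batch 2 arrays of days 5 and 6 the same differences had adjusted p of 0.000344, 0.000137 and 0.000848. Ttn had a difference of 0.10 ± 1.49 (limma, adjusted p = 0.97), with a 95% confidence interval from -3.13 to 3.32, which does not show that the levels are alike.

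**Figure D4:**
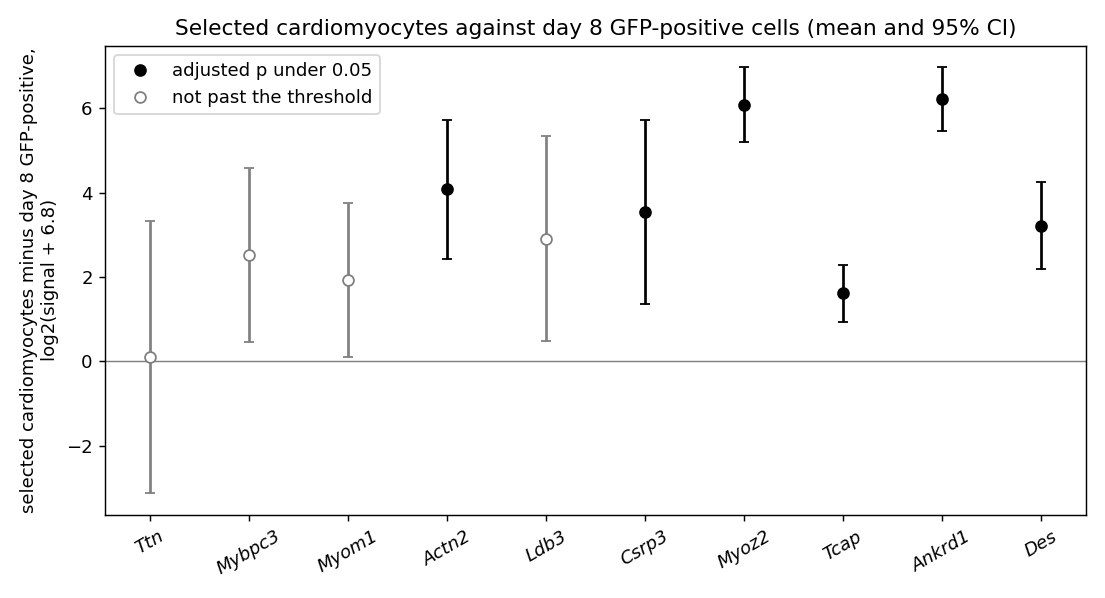
Points give the selected cardiomyocyte minus day 8 GFP-positive difference in log2(signal + 6.8) with its 95% confidence interval, filled where the adjusted p is under 0.05. Ankrd1 and Myoz2 lie above 6 units and Ttn at 0.10, and Myoz2 was tested only because of its cardiomyocyte signals.

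Set as a share of a gene's own cardiomyocyte mean, the day 8 GFP-positive mean was 93.5% for Ttn, 27.9% for Tcap, 25.9% for Myom1, 17.4% for Mybpc3, 13.02% for Ldb3 and 10.4% for Des. It was 8.54% for Csrp3, 5.82% for Actn2, 1.25% for Ankrd1 and 1.06% for Myoz2. These ratios carry no test, and the sorted signals of Myoz2 were all under 22.5. The 4 other titin probe sets that reached 22.5 gave 85.0 to 122.1%, the other Ankrd1 probe set 1.73% and the other Ldb3 probe sets 11.2% and 7.70%. The second Des probe set gave 87.3%, its cardiomyocyte mean being only 26.4, which is above the lowest of these titin values. By the probe sets used in the tests Ttn had the highest share of the 10 genes, and Myoz2 and Ankrd1 the lowest. On day 5 the share was 13.4% for Ttn, 5.39% for Des, 4.16% for Mybpc3, 3.53% for Myom1, 3.08% for Ldb3, 1.71% for Csrp3 and 0.719% for Actn2. Among contractile protein genes the day 8 share ran from 6.61% for Tnni3, the cardiac troponin I gene, to 61.6% for Actc1, cardiac actin, and 108.6% for Myh7, the beta myosin heavy chain gene.

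Of the partner genes some passed in selected cardiomyocytes against day 8 GFP-positive cells, where 13.7% of all genes rose. Of 27 Z-disc partners 15 rose and 0 fell, among them Pdlim7 (3.40 ± 0.34), Fhl2 (2.39 ± 0.32), Flnc, the gene of filamin C (1.96 ± 0.30), and Vcl (1.61 ± 0.20). Of 8 M-band and giant protein genes 5 rose and 0 fell, among them Trim54 (3.63 ± 0.36), Mybphl (3.31), Myom2, a second myomesin gene (2.74), and Mybpc2 (2.05). Of 13 assembly genes 5 rose and 0 fell, with Lmod2, the gene of leiomodin of the thin filament end, at 4.65, Hspb8 at 3.09 ± 0.31, Hspb7 at 2.90 ± 0.44 and Fhod3 at 1.98 ± 0.48. Myom2, Mybpc2 and Lmod2 reached 22.5 on the cardiomyocyte arrays alone, so the filter on dim genes fixed their calls. Mybphl otherwise reached it only in batch 2 GFP-positive cells of day 8 (24.9). The differences of these genes are descriptions, and the counts above include such genes. Of 13 contractile protein genes 2 rose and 0 fell, with a median of 1.70. Markers of other cells differed as well. Fibroblast markers summed to 16283.3 to 16332.5, against 1948.7 to 2006.6 in day 8 GFP-positive cells, with 3 of 5 rising, and smooth muscle markers to 16879.9 to 17677.7, against 5059.9 to 5264.7, with 3 of 5 rising. Myh11, which defines smooth muscle, was 54.5 and 43.2 in selected cardiomyocytes and under 22.5 on all sorted arrays. It entered the tests through its cardiomyocyte arrays alone, so any call of it was fixed by the filter. Desmin is also made by smooth muscle, and the part of these cells in the values above was not tested. Endothelium markers summed to 194.1 to 233.1 in selected cardiomyocytes, against 4300.7 to 4312.2 in day 8 GFP-positive cells.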

How the data were processed

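RNA of 18 Affymetrix arrays in 9 groups of 2 was measured. The deposited intensity values are MAS5 signals made with GCOS 1.4, per the submitters' processing notes, and each array's trimmed mean (2% off each end) is 150.0008 to 150.0012. Per the labels' protocols, RNA went through 2 rounds of amplification from a T7 oligo dT primer, which favours the 3' ends of transcripts. Array medians were 18.2 to 29.3. Detection calls were not used here.

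Of 45101 probe sets, 64 were controls, 9160 had no symbol and 932 several, and 34741 were matched by Entrez number with 0 symbols changed. Each gene kept its probe set with the highest mean, sets marked as cross-hybridising serving only where there was no other. Tests took the 13379 genes that reached 22.5, the overall median, on 2 or more arrays, on the scale of log2(signal + 6.8), the offset being the 25th percentile of all values. Groups were fitted in limma 3.58.1 (R 4.3.3; lmFit, eBayes with a variance trend) over all 18 arrays with 9 residual degrees of freedom. Batch comparisons came from a fit over the same 18 arrays with 7, which added a batch term for sorted arrays at each stage. P-values were adjusted over all tested genes by Benjamini-Hochberg, with 0.05 as the threshold. The code was tested on simulated data. Figures and promoter searches used Python 3.11.15 and matplotlib 3.10.9, and promoters came from RefSeq tables of GRCm38.p6.

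The members and gene lists were chosen with earlier results of these data known. All 10 members are named. Of each partner list and comparison up to 4 genes with the lowest p past the threshold are named, or else the 1 with the lowest p. Genes most like a member were ranked by Pearson's r over sorted arrays. The labels give batch numbers to the sorted arrays, and these were used as the replicate block, in which the cardiomyocytes had no batch. Over 28 pairs of groups the deviations of arrays with 1 batch number correlated at r = -0.183 to 0.653, over 0.1 in 13. Alternatives covered offset, scaling, filter, probe sets, variance trend, array weights, the block, fewer arrays or days, and each array left out. A batch block for each stage, and leaving out the 4 batch 2 arrays of days 5 and 6, were chosen after seeing the data.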

Additional observations from a re-analysis of the deposited data

Results flagged for a closer look

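The difference between batch 1 and batch 2 was larger on days 5 and 6 than on days 7 and 8 for 3 genes, by a limma test of the change itself, in units of log2(signal + 6.8). The change was 2.3712 for Ttn, 1.873 for Mybpc3 and 1.5048 for Myom1. For 2 other genes every GFP difference of 1 day had the opposite sign to those of another day, and the contrast between these days was not tested. Myoz2 had a GFP difference higher on day 8 than on day 7 by 1.03, with all its sorted signals under 22.5. Tcap had a GFP difference higher on day 5 than on day 6 by 0.531. Causes of these 5 results were not tested.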

How the results depend on the processing

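With 2 arrays a group, an effect must be large against the early batch spread to pass, and dim genes such as Myoz2 in sorted cells have no order. Of 1448 values of single genes under alternatives other than leaving out an array, 1328 kept their direction and side of the threshold, 25 lost a call, 70 gained one and 25 changed sign, none of these 25 being called. Of 146 counts of called members, 125 stayed within 1.5 times, 8 were lower and 13 higher. Causes were not tested.

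In GFP-positive cells 1 member rose over all days. That count was 0 with an offset of 1, with arrays divided by their medians, without a filter, without a variance trend, with array weights and with sorted arrays alone, and 2 with an offset equal to the median of all values. With the replicate block, which is batch, 5 rose over all days, 4 on day 8 and 5 late against early in GFP-negative cells. It also gained Des late against early in GFP-positive cells, and Ldb3, Mybpc3 and Myom1 in selected cardiomyocytes against day 8 GFP-positive cells. The calls gained are named above, and the block changed no other call. These cardiomyocyte calls were also gained with the median as offset, division by medians, array weights, and days 7 and 8 in place of day 8. With a block by stage 7 rose over all days, 2 on day 7, 6 on day 8, 6 late against early in GFP-negative cells and 1 in the change of the GFP difference. Without the 4 batch 2 arrays of days 5 and 6, 7 rose over all days and 1 late against early in GFP-positive cells. With days 8 and 5 alone 2 rose late against early in either fraction. Array weights gave 2 between batches on days 7 and 8, and division by medians 5 in the change of the batch difference. Leaving out 1 array gave 0 to 5 over all days, 0 to 7 late against early in GFP-positive and 0 to 2 in GFP-negative cells, and 0 to 2 between batches on days 7 and 8.

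Among all genes, calls over all days numbered 358, against 724 with the block, 1222 by stage and 752 without the 4 arrays. On day 8 they numbered 345, against 199 with offset 1, 542 with the median as offset, 181 with division by medians, 705 with the block, 188 with sorted arrays alone and 1274 by stage. Day 7 had 0, and 64 by stage. Late against early in GFP-positive cells had 2590, against 4584 with division by medians, 4034 by stage and 162 without the 4 arrays, and in GFP-negative cells 1673, against 3103 by stage and 444 without them. Day 5 had 2 and up to 20, and the change of the GFP difference 19 and up to 431. Between batches on days 7 and 8 there were 0, against 301 with array weights. The change of the batch difference had 512, against 984 with division by medians, 294 with the mean of probe sets, 263 without a trend and 304 with sorted arrays alone.

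Division by medians moved the median of all genes to -0.29 late against early in GFP-positive cells (0.09 as reported), to 0.32 in selected cardiomyocytes against day 8 GFP-positive cells (-0.16), and in the change of the batch difference to 0.21. The share of calls that were higher was 58.53% late against early in GFP-positive cells, 46.11% with quantile normalization and 14.51% with division by medians. In GFP-negative cells it was 57.98% and, with medians, 34.94%, in selected cardiomyocytes 38.57% and 75.28%, between batches on days 5 and 6 69.12% and 89.18%, and in the change of the batch difference 68.75% and 90.75%.

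Signs changed as follows. With the mean of probe sets Des had -0.027 over all days, -0.089 on day 5, -0.11 on day 6, 0.021 on day 8 and 0.14 in the change of the GFP difference. With quantile normalization and division by medians Tcap had -0.0396 and -0.0203 over all days, -0.10 and -0.0845 on day 8, -0.12 and -0.12 late against early in GFP-positive cells and 0.0896 and 0.12 in the change of the batch difference, and 0.0056 with medians between early batches. Myoz2 had 0.0642 and 0.0461 between early batches, and 0.57 on day 8 against day 5 in GFP-positive cells. Ldb3 on day 5 had -0.53 with offset 1. The change of the GFP difference of Myom1 was -0.11 with offset 1, -0.15 with medians, -0.155 with days 8 and 5 and -0.31 without the 4 arrays. Ttn in selected cardiomyocytes had -0.11 with quantile normalization. The change of the batch difference with array weights was -0.0123 for Ankrd1 and -0.0036 for Des.

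Leaving out 1 array changed the sign of these results, whose values ran as given. Actn2 had -0.17 to 0.97 on day 5. Ankrd1 had -0.0394 to 0.42 between late batches. Csrp3 had -0.48 to 2.37 on day 5 and -0.49 to 1.37 on day 6. Des had -0.24 to 0.34 in the change of the batch difference, -0.56 to 0.0799 in the change of the GFP difference, -0.24 to 0.27 on day 6, -0.37 to 0.90 on day 7 and -0.74 to 0.38 on day 8. Ldb3 had -1.84 to 2.29 on day 5 and -0.85 to 2.00 on day 6. Mybpc3 had -0.0195 to 2.51 on day 5 and -0.55 to 2.56 on day 6. Myom1 had -0.53 to 0.77 in the change of the GFP difference, -0.0957 to 2.05 on day 5 and -0.71 to 1.90 on day 6. Myoz2 had -0.38 to 0.20 between early batches, -0.0697 to 0.53 in the change of the batch difference, -0.31 to 0.0617 late against early in GFP-positive cells, -0.62 to 0.15 on day 5, -0.27 to 0.73 on day 6 and -0.58 to 0.15 on day 7. Tcap had -0.14 to 0.15 between late batches, -0.27 to 0.022 in the change of the batch difference, -0.23 to 0.0419 in the change of the GFP difference, -0.0347 to 0.10 over all days, -0.27 to 0.0121 on day 7 and -0.17 to 0.37 on day 8. Ttn had -0.99 to 3.48 on day 5, -1.07 to 3.22 on day 6 and -0.10 to 0.29 in selected cardiomyocytes against day 8 GFP-positive cells.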
